A study of Rattus norvegicus with 6 samples.

Results

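This report concerns 37 genes of DNA replication and of the supply of nucleotides for it, in rat sciatic nerve before and after a crush. The genes were chosen by name for their known function, but with earlier results of these data known. Each of the 37 symbols matched exactly 1 of the 30957 rows of the deposited gene table. Total RNA came from the sciatic nerve of Sprague-Dawley rats, 1 month old, in 3 groups of 2 rats. The rats of the first group were the controls, which the sample labels call normal and which the methods of the study describe as opened without clamping. The rats of the other groups had the left sciatic nerve clamped with forceps, and the nerve was taken 4 days (D4) or 7 days (D7) later. These rats had been anaesthetised with chloral hydrate. Each rat gave 1 library, a or b, so n = 2 for every group, and the tests measure the spread between these few rats. The RNA was of whole nerve, in which more cells of a type and more RNA per cell cannot be told apart.

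A cell copies its DNA from origins that are licensed before S phase. The origin recognition complex, with Cdc6 and Cdt1, loads a ring of Mcm2 to Mcm7 onto DNA, Cdc45 and the GINS complex then turn that ring into the working helicase, and primase and the DNA polymerases follow, held by the sliding clamp PCNA. Deoxynucleotides come from ribonucleotide reductase and from the thymidylate enzymes. Many of these genes are transcribed under E2F factors when a cell leaves the resting state, and Schwann cells, which are quiescent in intact nerve, are known to divide after a crush, as do macrophages and fibroblasts of the nerve.

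Between 18727255 and 25350886 fragments per library were counted on genes. The 37 genes together took 0.03% of these in control a and 0.0375% in control b, against 0.169% and 0.184% in the D4 libraries and 0.119% and 0.12% in those of D7. The injured libraries all lay well above the controls, with D4 highest. The controls were not alike for genes of dividing cells. Of the 37 genes, 30 had a higher value in control b than in control a, by a median log2 ratio of 0.25, whereas 47.1% of all tested genes were higher in b. For 19 mitosis genes, listed for comparison, b was the higher library for all 19, by a median log2 ratio of 0.94. Within D4 the median log2 ratio of b over a was 0.12 for the 37 genes, and within D7 it was 0.03. Library b was still the higher for 32 of the 37 in D4, against 52.5% of all tested genes, and for 21 in D7, against 50.6%. For the mitosis genes b was the higher for 17 of 19 in D4, by a median log2 ratio of 0.17, and for 16 in D7, by 0.08.

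**Figure D1:**
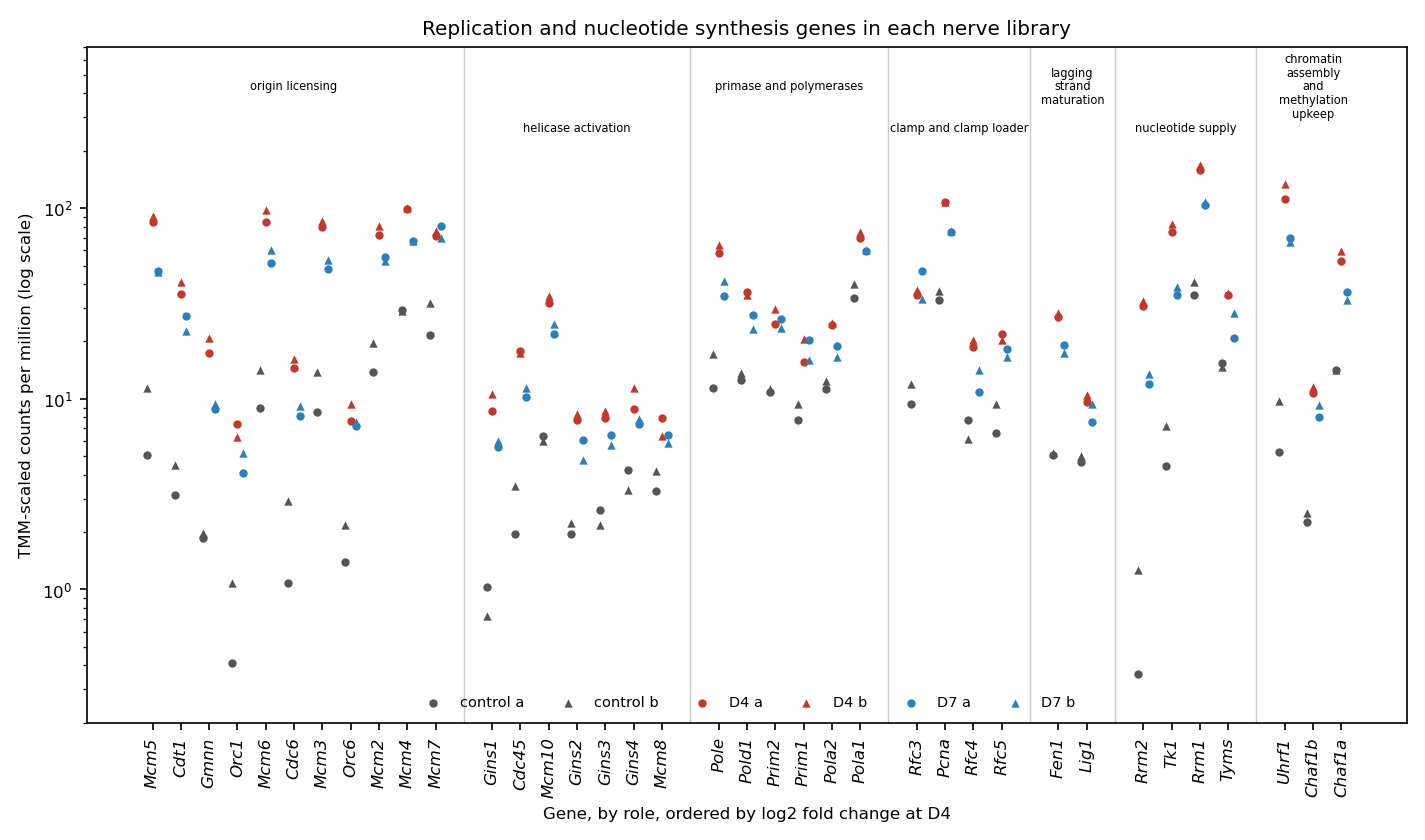
CPM of the 37 genes (counts scaled to a common library total, with TMM factors) on a log axis, with genes grouped by role along the horizontal axis, circles for library a and triangles for library b (grey control, red D4, blue D7). For all 37 genes both D4 libraries and both D7 libraries lie above both controls, and the control points of Rrm2, Orc1, Cdc6 and Mcm5 are the farthest apart.

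All 37 genes were higher in injured than in control nerve, and the largest differences were at D4. A gene was called when its adjusted p in edgeR's quasi-likelihood test was under 0.05 and its fold change was at least 2. At D4, 35 of the 37 genes were called higher, against 11.2% of the 15195 genes tested. None was called lower, against 10.7% of all genes, and no member had a log2 fold change below 0 at either day in edgeR or DESeq2. The median log2 fold change of the 37 was 2.10 (4.27-fold), and that of all tested genes was -0.04. At D7, 30 were called higher against 9.83% of all genes, none was called lower against 9.02%, and the median was 1.502 beside 0.01 for all genes. The adjusted p alone was under 0.05 and the difference upward for all 37 at both days, against 21.6% of all genes at D4 and 19.5% at D7. Both libraries of D4 lay above both control libraries for all 37, against 36.9% of genes tested, and the same held at D7 for all 37, against 37.2%. Both comparisons share the control libraries, so the values of the 2 days are not independent. Without control b, 37 were called at D4 and 30 at D7, and without control a, 33 and 29. The calls that leaving out 1 library removed were those of Pola2, Prim1 and Lig1 at D4 (without control a or D4 b) and of Prim1, Rfc5 and Gins4 at D7 (without a control or a D7 library), and those it added were of Mcm8 and Pola1 at D4 and of Rfc4 and Pold1 at D7.

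**Figure D2:**
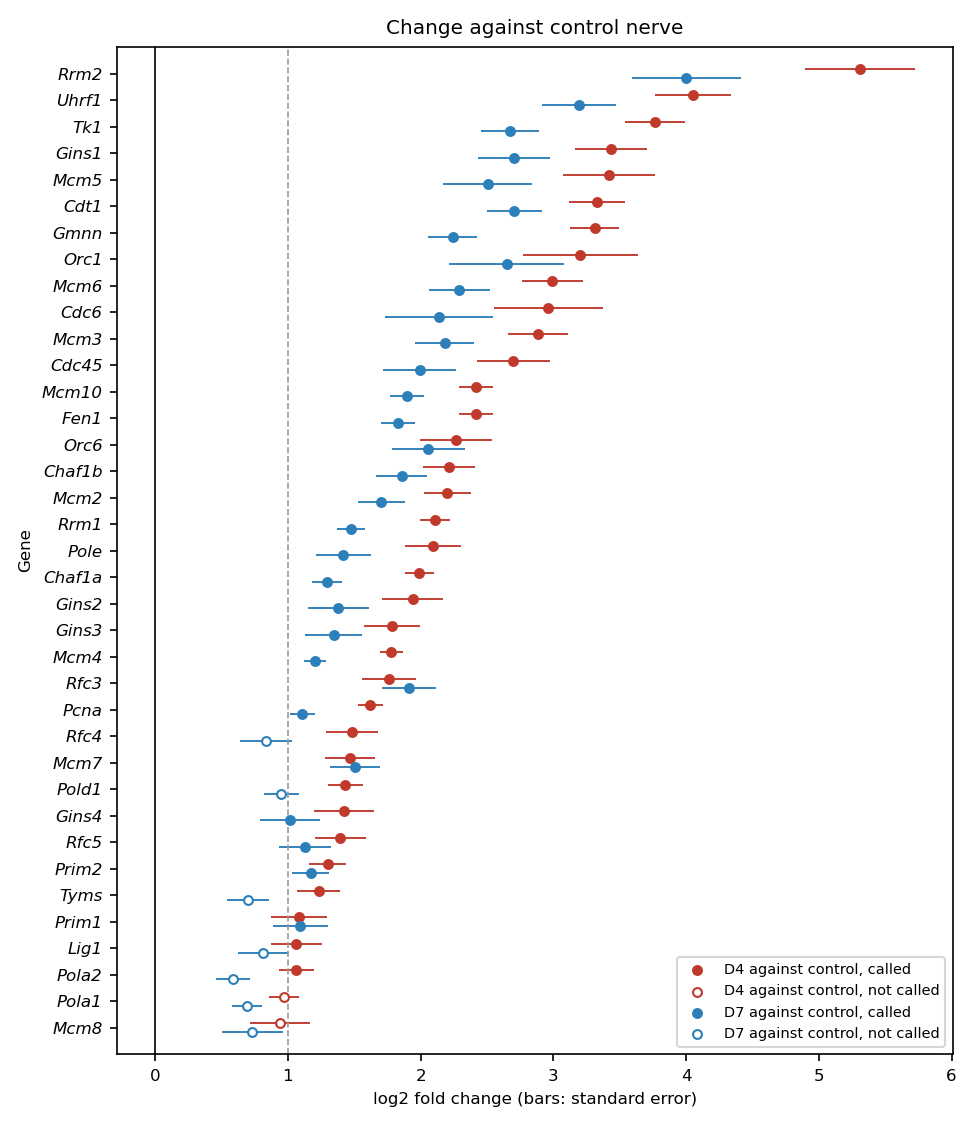
The log2 fold change of each gene at D4 (red) and D7 (blue) against control, ordered by the value at D4, with bars for the standard error (n = 2 libraries per group), filled points for called genes and a dashed line at a fold change of 2. Rrm2, Uhrf1 and Tk1 are at the top and Mcm8 and Pola1, not called at D4, at the bottom.

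The genes of origin licensing were called higher without exception, 11 of 11 at D4 and 11 of 11 at D7, with median log2 fold changes of 2.96 and 2.18. Mcm5, a subunit of the helicase ring (chr19:14523554-14561278, Rnor_6.0), had the largest difference of the group at D4. It was at 5.05 CPM (counts scaled to a common library total, with TMM factors) in control a and 11.5 in control b, at 84.8 and 90.6 in the D4 libraries and at 47.0 and 46.0 in those of D7. The groups did not overlap, and the control libraries differed from each other by a larger ratio than those of either injured group. The log2 fold change at D4 was 3.42 ± 0.35 (SE; edgeR adjusted p = 0.000762), and it was 4.12 without control b. Cdt1, which brings the ring to the origin (chr19:55381565-55386511), was at 3.14 and 4.52 CPM in control, 35.6 and 41.04 on D4 and 27.1 and 22.8 on D7, a log2 fold change of 3.33 ± 0.21 at D4 (adjusted p = 0.000203). Orc1, the largest subunit of the origin recognition complex (chr5:128190708-128210445), was among the rarest transcripts of the set. Control a held 8 fragments of it and control b 18, against 179 and 170 at D4 and 87 and 105 at D7. Its log2 fold change was 3.20 ± 0.43 at D4 (adjusted p = 0.00215) and 4.03 without control b. Cdc6, the ATPase that works with the origin complex in loading, had 21 and 48 fragments in control, 354 and 436 on D4 and 174 and 185 on D7, which gave 2.96 ± 0.41 at D4 (adjusted p = 0.00233) and 3.82 without control b.

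Mcm7 had the smallest difference of the licensing group at D4 (chr12:19306607-19314016). Its values were 21.7 and 31.7 CPM in control, 71.6 and 75.8 on D4, and at D7 81.0 and 70.1. The 4 injured libraries overlapped each other and lay above both controls, with log2 fold changes of 1.47 ± 0.19 at D4 (adjusted p = 0.00178) and 1.502 ± 0.19 at D7 (adjusted p = 0.00227). Between Mcm5 and Mcm7, the other ring subunits had log2 fold changes at D4 of 2.99 (Mcm6), 2.89 (Mcm3), 2.20 (Mcm2) and 1.78 (Mcm4), and Orc6, the smallest subunit of the origin complex, had 2.27.

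Of the 6 genes that turn the ring into a moving helicase and the related Mcm8, grouped with them, 6 of 7 were called higher at D4 and the same number at D7, with medians of 1.94 and 1.38. Gins1 (chr3:146695344-146716816), a subunit of the 4-membered GINS complex, had 20 and 12 fragments in control, 210 and 286 on D4 and 119 and 121 on D7. Its log2 fold change of 3.43 ± 0.27 at D4 (adjusted p = 0.000339) was the largest of the group, although the other GINS subunits had 1.94 (Gins2), 1.78 (Gins3) and 1.42 (Gins4). Mcm10, which binds the activated helicase, had 2.42 ± 0.13. Cdc45, the partner of GINS, had 2.70 ± 0.27 at D4, with 38 and 58 fragments in control and 433 and 472 on D4. The span of Cdc45 overlaps that of Cldn5, a tight junction gene of endothelial cells, and whether fragments were counted by strand was not given in the sources used here. Cldn5 itself was called lower at both days, with 1598 and 1112 fragments in control and 775 and 850 on D4. Mcm8, a relative of the ring subunits that works in repair by recombination (chr3:125470551-125500795), was the exception. It had 64 and 69 fragments in control, 193 and 173 on D4 and 138 and 119 on D7. Its log2 fold change was 0.94 ± 0.23 at D4 (adjusted p = 0.0183) and 0.73 ± 0.23 at D7 (adjusted p = 0.0492), both under the fold threshold.

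The polymerases and the primase had smaller differences, with medians of 1.19 at D4 and 1.02 at D7, and 5 of 6 and 3 of 6 genes called. Pole, the catalytic subunit of the leading strand polymerase epsilon (chr12:52403529-52452040), was at 11.4 and 17.2 CPM in control, 57.8 and 64.4 on D4 and 34.8 and 41.7 on D7. Its log2 fold change at D4 was 2.10 ± 0.21 (adjusted p = 0.000754). Pola1, the catalytic subunit of polymerase alpha that extends the primer (chrX:62382608-62698830), was at 33.8 and 40.2 CPM in control, 69.7 and 75.3 on D4 and 59.3 and 60.3 on D7. Its groups did not overlap, but at 0.97 ± 0.11 (adjusted p = 0.00127) on D4 and 0.69 ± 0.11 (adjusted p = 0.00567) on D7 it stayed under the fold threshold. Its partner Pola2 had 1.06 ± 0.13 at D4 and 0.59 ± 0.13 at D7, the smallest value of the 37 at D7. The primase subunits Prim1 and Prim2 were called at both days, with 1.08 and 1.301 at D4 and 1.09 and 1.17 at D7. Pold1, the catalytic subunit of polymerase delta, had 1.43 ± 0.13 at D4 and 0.95 ± 0.13 at D7, called at D4 alone. The span of Pola2 overlaps that of Cdc42ep2, whose mean of 116 fragments per library compares with 405 for Pola2.

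The clamp gene Pcna (chr3:124880698-124884570) was called higher at both days. It was at 33.0 and 36.8 CPM in control, 107.3 and 107.4 on D4 and 74.5 and 76.0 on D7, a log2 fold change of 1.62 ± 0.095 at D4 (adjusted p = 0.000172) and 1.11 ± 0.095 at D7. Rfc3, a subunit of the loader that opens the clamp (chr12:1460538-1471357), had the largest value of this group, 1.76 ± 0.20 at D4 and 1.91 ± 0.20 at D7. It was at 9.37 and 11.9 CPM in control, 35.1 and 37.2 on D4 and 46.7 and 33.5 on D7, so that the D7 libraries lay on either side of the D4 libraries. The loader subunits Rfc4 and Rfc5 had 1.49 and 1.40 at D4, and at D7 Rfc4 was at 0.84 (adjusted p = 0.0197), under the fold threshold.

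Of the genes that join the fragments of the lagging strand, Fen1, the nuclease that removes the primer flap, was at 5.10 and 5.19 CPM in control, 26.8 and 28.0 on D4 and 19.1 and 17.4 on D7. Its log2 fold change was 2.42 ± 0.13 at D4 (adjusted p = 0.000138) and 1.83 ± 0.13 at D7. Lig1, the ligase that seals the nick, had 1.06 ± 0.19 at D4 (adjusted p = 0.00635) and 0.82 ± 0.19 at D7 (adjusted p = 0.02), so it was called at D4 alone.

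The nucleotide supply genes held the largest difference of the 37 genes, that of Rrm2, and in Tyms one of the 7 genes not called at D7. Rrm2, the small subunit of ribonucleotide reductase that is made in S phase (chr6:43884678-43889515), had 7 fragments in control a and 21 in control b, while the D4 libraries held 744 and 879 and the D7 libraries 255 and 272. Control nerve was nearly without it, and its libraries did not overlap between any of the groups. The log2 fold change was 5.31 ± 0.41 at D4 (39.7-fold, adjusted p = 0.000329) and 4.00 ± 0.41 at D7 (16.02-fold, adjusted p = 0.00115). It rests on low control counts, and it was 4.63 at D4 without control a and 6.43 without control b, and 3.32 and 5.12 at D7. Rrm1, the large subunit of the same enzyme, had 680 fragments in both controls, 3867 and 4572 on D4 and 2219 and 2168 on D7, which is 2.11 ± 0.11 at D4 (adjusted p = 0.000134). Tk1, the thymidine kinase of the cytosol (chr10:106817601-106828884), had 86 and 119 fragments in control, 1817 and 2226 on D4 and, on D7, 749 and 776. The log2 fold change was 3.76 ± 0.23 (adjusted p = 0.000175) and, at D7, 2.67 ± 0.22. Tyms, thymidylate synthase, had 298 and 245, then 850 and 972, then 445 and 567 fragments. At 1.23 ± 0.16 on D4 (adjusted p = 0.00187) it was called, and at 0.70 ± 0.16 on D7 (adjusted p = 0.0181) it was not.

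Uhrf1, which brings the maintenance methyltransferase to newly copied DNA (chr9:10738222-10757954), had the next largest difference after Rrm2. It was at 5.25 and 9.71 CPM in control, 112.1 and 134.3 on D4 and, on D7, 69.7 and 66.3. The log2 fold change was 4.05 ± 0.29 at D4 (16.6-fold, adjusted p = 0.000254) and 3.19 ± 0.28 at D7 (9.14-fold, adjusted p = 0.000731). The subunits of the chromatin assembly factor that puts histones on new DNA, Chaf1a and Chaf1b, had 1.99 ± 0.11 and 2.21 ± 0.19 at D4 and 1.29 and 1.86 at D7, all called.

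From D4 to D7 most of the genes had lower values, few of them past the test. The median log2 difference of D7 against D4 was -0.55 over the 37, beside 0.01 for all genes tested, and 34 of the 37 lay below 0. Both D7 libraries were below both D4 libraries for 32 of the 37, against 29.1% of the genes tested. Of the excess over control at D4, a median of 56.3% was still there at D7. This share ran from 38.8% for Rrm2, 41.9% for Gmnn and 42.7% for Tk1 up to 101.4% for Prim1, 103.8% for Mcm7 and 115.6% for Rfc3. By the direct test 2 genes were called lower, against 0.494% of all genes. No member was called higher, against 1.68% of all genes, and none of the 3 genes above 0 had an unadjusted p under 0.05 in edgeR. DESeq2 called 3 members lower and none higher. Gmnn, which holds Cdt1 back from loading a second ring (chr17:42302540-42310783), was at 1.85 and 1.99 CPM in control, 17.4 and 20.8 on D4 and 8.87 and 9.35 on D7. It fell by 1.07 ± 0.16 on the log2 scale from D4 to D7 (edgeR adjusted p = 0.0297). Tk1, at 74.6 and 82.2 CPM on D4 and 35.2 and 38.4 on D7, fell by 1.09 ± 0.20 (adjusted p = 0.0404).

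Neither call held when any 1 of the 4 injured libraries was left out: the adjusted p was then between 0.064 and 0.218 for Gmnn and between 0.0791 and 0.242 for Tk1. In these fits the median log2 difference over the 37 genes lay between -0.581 and -0.512. In the fit of all libraries 24 of the 37 had an unadjusted p under 0.05, beside 3754 of 15195 genes in either direction. An adjusted p under 0.05 with a lower value at D7 was found for 7 members, against 1.79% of all genes. Besides Gmnn and Tk1 these were Mcm4, Pcna, Fen1, Rrm1 and Chaf1a, which lay between -0.51 and -0.70. Rrm2 had the largest difference, -1.31 ± 0.31, but its adjusted p was 0.0711.

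Per length of transcript, Pcna was the highest of the 37 in every library. By the deposited FPKM, which divide the count by gene length and library total, it stood at 24.5 and 28.1 in control, 98.6 and 98.8 on D4 and 68.3 and 70.7 on D7. Rrm1 was next in each group, at means of 11.04, 58.1 and 37.6 FPKM. The largest moves up the order were those of Rrm2, Tk1 and Uhrf1. Rrm2 went from place 33 of 37 in control to place 10 on D4 and 17 on D7, Tk1 from 19 to 3 and 9, and Uhrf1 from 23 to 7 and 11. At the low end Orc1 was lowest in control (0.139 and 0.376 FPKM) and Gins2 on D7 (1.55 and 1.24). On D4 the lowest places were not apart: Gins2 had 1.97 and 2.12 FPKM and Mcm8 had 2.62 and 2.12.

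The subunits of the Mcm2 to Mcm7 ring, which assemble in equal number, stood at unequal transcript levels in control nerve and at near equal ones on D4. The highest of the 6 was 6.64 and 4.25 times the lowest in control a and b by FPKM, 1.35 and 1.41 times on D4, and 2.65 and 2.34 times on D7. Mcm7 and Mcm4 were the highest in control, at means of 9.41 and 7.62 FPKM, and Mcm5 the lowest at 1.90. On D4 the 6 genes lay between 24.5 (Mcm5) and 33.4 (Mcm6). On D7 Mcm7 was the highest, at 34.7 and 30.4 FPKM against 13.1 and 13.0 for Mcm5. A corresponding change was seen in ribonucleotide reductase. Rrm1 exceeded Rrm2 by 37.9 and 12.6 times in control, by 2.03 and 2.03 times on D4 and by 3.39 and 3.11 times on D7. The GINS genes stayed unequal by FPKM, with ratios of highest to lowest of 8.57 and 5.91 in control, 4.52 and 5.48 on D4 and, on D7, 4.83 and 6.51. The lengths implied by their FPKM ran from 1055 (Gins4) to 4192 bases (Gins2). By CPM, which is not divided by length, they lay between 7.76 and 8.83 in D4 a and between 8.31 and 11.5 in D4 b. In control a they lay between 1.03 and 4.22 CPM, and in control b between 0.724 and 3.32. The ratio of Cdt1 to its inhibitor Gmnn was 0.892 and 1.20 in control, 1.08 and 1.04 on D4 and 1.61 and 1.28 on D7, so that both D7 libraries lay above the other 4. These ratios were not tested.

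**Figure D3:**
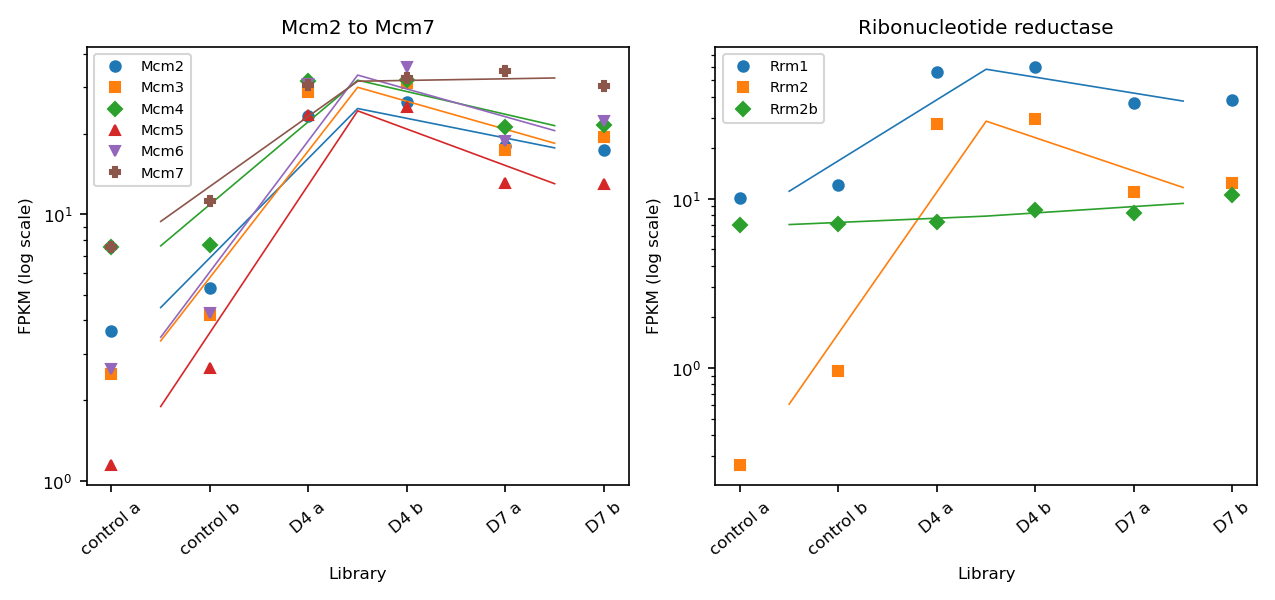
Deposited FPKM (log axis) of Mcm2 to Mcm7 on the left and of the ribonucleotide reductase genes on the right in each of the 6 libraries, with points for libraries and lines through the group means. The Mcm genes span a ratio of 6.64 and 4.25 in the controls and of 1.35 and 1.41 on D4, and Rrm2 passes Rrm2b on D4.

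Close relatives and partners of several members are named here after their values were seen. Rrm2b, the small reductase subunit that serves resting cells, was at a log2 fold change of -0.12 (adjusted p = 0.624), and Rrm2 went from 0.0379 and 0.136 times its FPKM in control to 3.84 and 3.47 times on D4 and 1.32 and 1.18 times on D7. The mitochondrial thymidine kinase Tk2 had -0.30 at D4 (adjusted p = 0.172), with Tk1 at 0.344 and 0.570 times its FPKM in control and 6.68 and 8.63 times on D4. In the origin complex, Orc2, Orc3, Orc4 and Orc5 had log2 fold changes of -0.32, -0.72, -0.07 and -0.01 at D4 beside 3.20 for Orc1 and 2.27 for Orc6. In the clamp loader Rfc1, the subunit particular to that complex, had -0.37 (adjusted p = 0.0234) and Rfc2, called higher, 1.56. Of the other subunits of polymerase epsilon, Pole2 was called higher, at 2.00 (adjusted p = 0.0132) beside 2.10 for Pole, while Pole3 and Pole4 had 0.16 and 0.04. The differences between these relatives were not tested.

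A wider list of 38 replication genes that are not members had 36 genes with a single row, all tested. At D4, 15 were called higher, beside 11.2% of all genes, with a median over the list of 0.66. At D7, 11 were called higher, beside 9.83%, with a median of 0.51. Of the 6 below 0 at D4, Orc3, Rfc1 and Orc2 had adjusted p under 0.05 in edgeR but changed less than 2-fold. The largest rises at D4 were of Asf1b, a histone chaperone, at 4.59 (10 and 10 fragments in control, 309 and 391 on D4, 95 and 142 on D7), and of Clspn, an adaptor of the replication checkpoint, at 3.28. Of 33 further genes of nucleotide synthesis, 4 were called higher and 1 lower at D4, beside 11.2% and 10.7% of all genes, with a median of 0.54, and 1 higher at D7, with a median of 0.22. Dctpp1, which breaks down dCTP, rose by 2.16 and Dck, which phosphorylates deoxycytidine, by 1.28, while Prps2, which makes the activated ribose of all nucleotides, fell by 1.3 (log2 values at D4). Mthfd2, an enzyme of mitochondrial folate metabolism, was called lower at D7 than at D4, at -1.14 (adjusted p = 0.0309). Among enzymes of purine and pyrimidine synthesis below the fold threshold at D4, Impdh2 was at 0.86, Ctps1 at 0.84, Gart at -0.18 and Ctps2 at -0.55.

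Of 13 genes of E2F factors, their partners and the pocket proteins that restrain them, 6 were called higher and 1 lower at D4, and 5 higher at D7. The shares over all genes were 11.2% and 10.7% at D4 and 9.83% higher at D7. The repressive factors E2f7 and E2f8 had the largest rises, 3.81 and 3.41 at D4. Tfdp2, a partner subunit, fell by 1.61 at D4 and was at -0.94 at D7 (adjusted p = 0.00464, under the fold threshold). Tfdp1, also a partner subunit, was called higher at D4, at 1.07 (edgeR adjusted p = 0.000347), and was at 0.90 at D7, under the fold threshold. E2f1, an activating factor, rose by 1.83 at D4. The mitosis genes were called higher in full, 19 of 19 at both days, with medians of 4.06 and 3.35, and Ttk (4.78) and Cdk1 (4.76), kinases of the spindle checkpoint and of mitotic entry, had the largest values at D4.

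**Figure D4:**
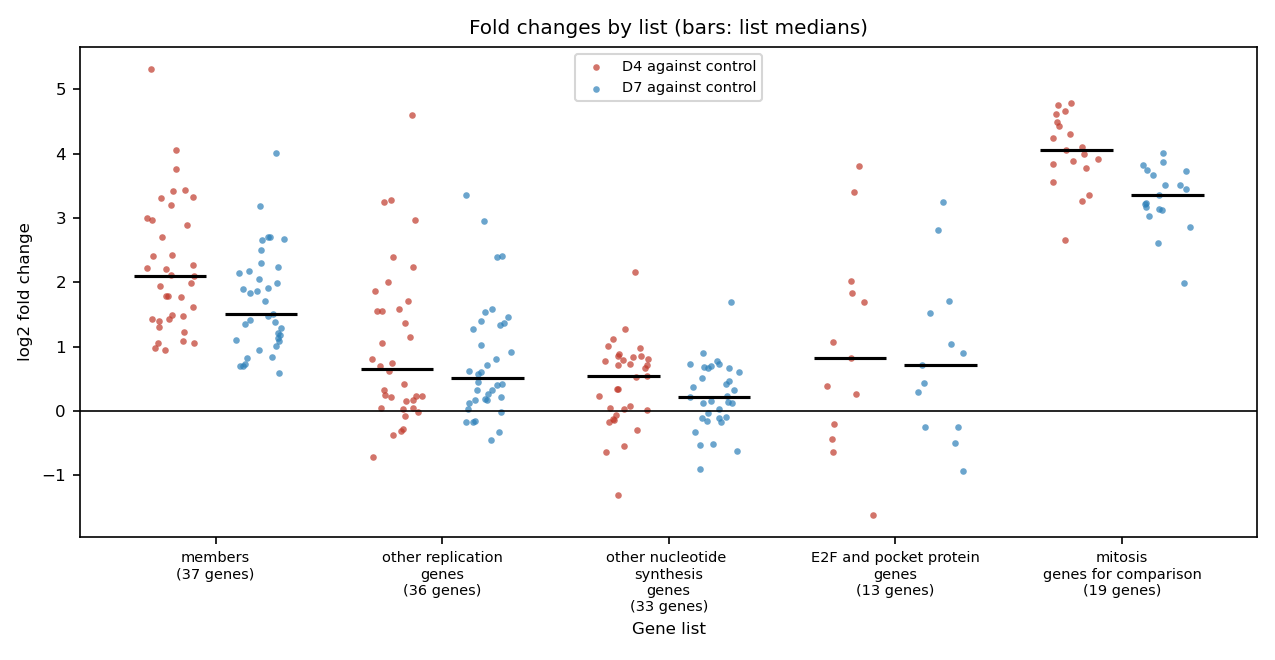
The log2 fold changes at D4 (red) and D7 (blue) of the 37 members and of the genes tested in 4 other lists, 1 point per gene, with black bars at the list medians. The medians at D4 are 2.10 for the members, 0.66 for other replication genes, 0.54 for other nucleotide synthesis genes and 4.06 for the mitosis genes.

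Marker genes of the cell types of the nerve also differed between the groups. Summed CPM of 8 macrophage markers ran from 530.5 to 559.8 in control, 2040 to 2072 on D4 and 1469 to 1671 on D7, and 8 of 8 were called higher at D4 and 7 of 8 at D7. Of the Schwann cell markers, Mbp and Prx, genes of the myelin sheath, were called lower at both days, and Ngfr and Erbb3, receptors of the Schwann lineage, higher at both. Sox10, the factor that defines the Schwann lineage, was well above 0 in every library. Its fragments, not scaled to library totals, ran from 4270 to 11631 over the libraries of all groups. It was called at neither day, which does not show that it was unchanged. The 6 fibroblast markers summed to 55250 to 60010 in control, 33730 to 37430 on D4 and 29130 to 32070 on D7. None was called by edgeR at D4, where 5 of 6 had an adjusted p under 0.05, and 1 was called lower at D7. At each day 5 had log2 fold changes below 0 and 1 above. The 5 T cell markers, Cd4 included, summed to 30.6 to 33.1 in control, 88.5 to 98.7 on D4 and 99.3 to 100.9 on D7. Most of each sum was Cd4, so the sums do not describe the other markers of this list. At D4, 3 were called higher and Cd3g lower, and at D7 4 were called higher, with a median log2 fold change of 3.49 beside 1.77 at D4 and with Cd3g at 0.22 (adjusted p = 0.662). Cd3d was at 0 in both controls. The 5 endothelial markers with a row summed to 871.8 to 1484 in control, 490.1 to 522.3 on D4 and 284.2 to 481.6 on D7. Of these, 3 were called lower at D4 and 5 at D7, against 10.7% and 9.02% of all genes. The 5 muscle markers (20.4 to 39.7 in control, 5.21 to 42.2 on D4) and the 6 adipocyte markers (1366 to 1593 in control, 52.7 to 668.6 on D7) varied most within groups. The part of each cell type in the values of the 37 genes was not tested.

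Sequence upstream of the genes was examined in windows of 300 bases around RefSeq transcript starts of the GRCr8 assembly, 250 before and 50 from the start on. Windows were found for 32 of the 37 genes, 34 windows in all because Uhrf1 has 3 starts, and Orc1, Cdc6, Mcm4, Gins4 and Rrm2 had none. The letters searched, on both strands, were TTTCGCGC and TTTGGCGC, which E2F factors are known to bind, and CCAAT, the box of the factor NF-Y. Other forms of the E2F word were not searched, so a window counted as without one may hold another form. An E2F word lay in 15 of the 34 member windows (44.1%), against 265 of all 33469 windows of the assembly (0.792%), and against 0.94% of the 21603 windows whose share of G and C was within the members' own range of 45.7% to 70%. CCAAT lay in 23 of 34 (67.6%), against 37.5% of all windows, and both words in 11 (32.4%), against 0.317%. The mitosis genes held CCAAT in 12 of 17 windows (70.6%) and an E2F word in 1 (5.88%). The other nucleotide synthesis genes held an E2F word in 1 of 29 (3.45%), and the other replication genes in 6 of 32 (18.8%). A match is a description of the letters and not a binding site.

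**Figure D5:**
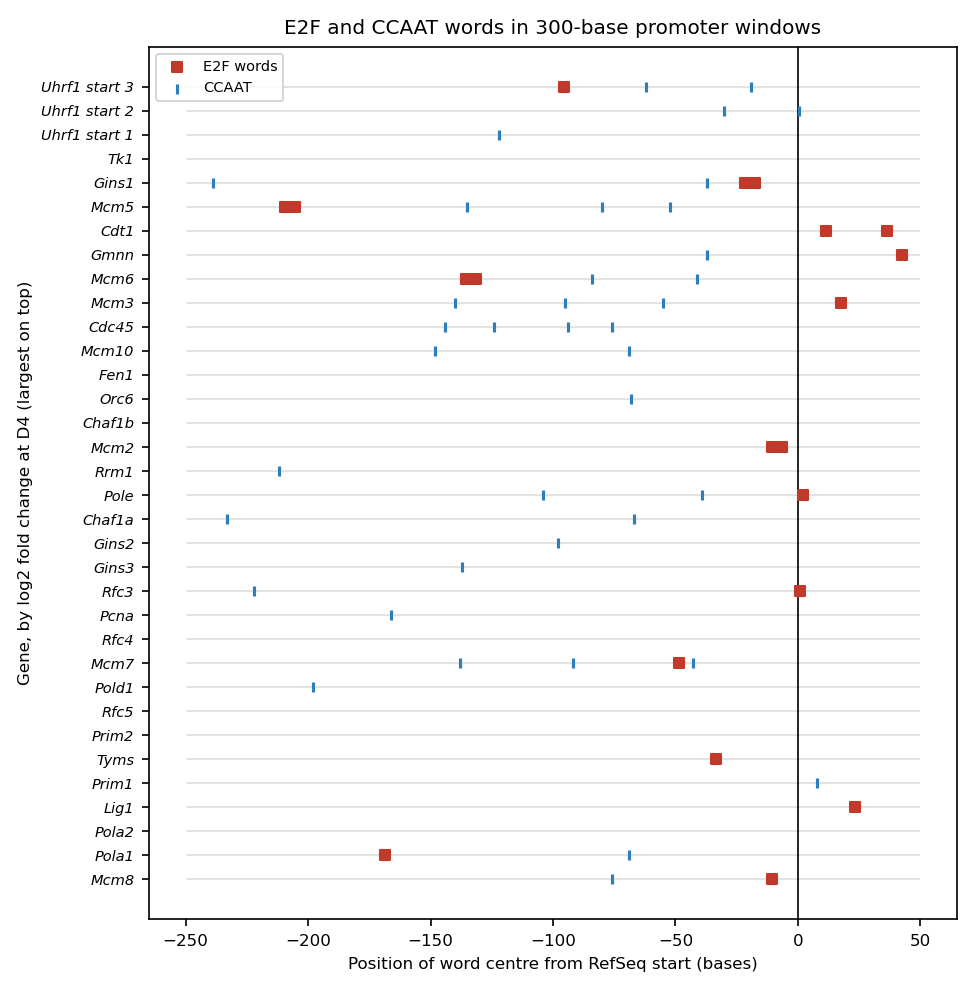
Position of E2F words (red squares) and of CCAAT (blue ticks), on either strand, in the 34 promoter windows of 32 members, in bases from the RefSeq start, with genes ordered by the log2 fold change at D4. E2F words occur in 15 windows from Uhrf1 at the top to Mcm8 at the bottom, and Tk1 holds neither word.

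In 4 members the E2F words of both strands overlapped to a 12-base unit that reads nearly the same from either end, at bases -25 to -14 in Gins1, -14 to -3 in Mcm2, -213 to -202 in Mcm5 and -139 to -128 in Mcm6. Such a unit was found in 6 of all 33469 windows (0.0179%), and the other windows were both of Topbp1, a gene of the wider replication list that rose by 1.16 at D4. The bases from 250 before the start to 30 from it on are printed 5′ to 3′ for these 4 members, because they share the unit, with E2F words and CCAAT in capitals. The regions are chr3:160184670-160184949 on the plus strand for Gins1, chr4:122918065-122918344 on the minus strand for Mcm2, chr19:13488563-13488842 on the plus strand for Mcm5 and chr13:42404323-42404602 on the minus strand for Mcm6 (GRCr8).
Gins1: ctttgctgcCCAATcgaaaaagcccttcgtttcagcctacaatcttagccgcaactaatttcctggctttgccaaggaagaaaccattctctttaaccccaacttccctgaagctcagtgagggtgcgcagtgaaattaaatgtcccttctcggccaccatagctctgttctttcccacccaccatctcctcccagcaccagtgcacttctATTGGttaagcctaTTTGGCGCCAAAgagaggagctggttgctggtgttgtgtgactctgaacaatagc
Mcm2: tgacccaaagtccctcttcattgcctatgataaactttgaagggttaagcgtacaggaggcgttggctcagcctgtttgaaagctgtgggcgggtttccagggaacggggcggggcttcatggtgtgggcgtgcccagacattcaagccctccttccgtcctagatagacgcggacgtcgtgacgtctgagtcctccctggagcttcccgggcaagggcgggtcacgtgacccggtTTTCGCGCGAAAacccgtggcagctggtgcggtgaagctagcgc
Mcm5: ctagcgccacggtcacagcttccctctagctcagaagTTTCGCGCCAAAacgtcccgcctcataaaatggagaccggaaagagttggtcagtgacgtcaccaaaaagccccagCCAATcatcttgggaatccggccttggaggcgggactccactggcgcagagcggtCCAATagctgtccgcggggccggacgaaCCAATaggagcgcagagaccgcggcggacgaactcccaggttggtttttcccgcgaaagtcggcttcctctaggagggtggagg
Mcm6: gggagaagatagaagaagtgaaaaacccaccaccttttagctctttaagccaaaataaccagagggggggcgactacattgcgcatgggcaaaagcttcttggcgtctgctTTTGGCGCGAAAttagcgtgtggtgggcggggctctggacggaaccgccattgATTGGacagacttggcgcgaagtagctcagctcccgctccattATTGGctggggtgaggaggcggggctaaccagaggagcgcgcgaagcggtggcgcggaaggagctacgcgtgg

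Whether the words go with the size of the change was not tested, and Orc1, Cdc6, Mcm4, Gins4 and Rrm2 had no window. Mcm8 and Pola1, the members not called at D4, each held 1 E2F word and 1 CCAAT. Tk1, among the largest rises and called lower at D7 than at D4, held none of the words searched. These windows are printed as examples. The regions are chr3:140539397-140539676 on the plus strand for Mcm8, chrX:62342326-62342605 on the minus strand for Pola1 and chr10:103544748-103545027 on the minus strand for Tk1 (GRCr8).
Mcm8: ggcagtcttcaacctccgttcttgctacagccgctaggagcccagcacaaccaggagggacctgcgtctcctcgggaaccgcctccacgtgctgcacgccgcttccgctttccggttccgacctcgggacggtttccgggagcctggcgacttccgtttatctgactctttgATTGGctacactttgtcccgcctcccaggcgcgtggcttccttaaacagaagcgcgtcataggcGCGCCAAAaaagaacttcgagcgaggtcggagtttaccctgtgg
Pola1: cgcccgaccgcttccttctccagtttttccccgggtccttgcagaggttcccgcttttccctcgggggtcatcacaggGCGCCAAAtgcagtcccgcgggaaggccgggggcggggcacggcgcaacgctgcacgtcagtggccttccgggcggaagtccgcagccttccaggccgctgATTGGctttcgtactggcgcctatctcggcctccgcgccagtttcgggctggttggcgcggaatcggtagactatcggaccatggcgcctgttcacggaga
Tk1: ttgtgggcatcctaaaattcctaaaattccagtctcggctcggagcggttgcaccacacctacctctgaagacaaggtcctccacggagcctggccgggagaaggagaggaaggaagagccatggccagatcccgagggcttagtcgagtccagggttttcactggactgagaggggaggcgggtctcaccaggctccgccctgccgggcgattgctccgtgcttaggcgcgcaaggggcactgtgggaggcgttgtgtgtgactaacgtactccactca

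In Mcm8 the E2F word lay at bases -14 to -7 and in Pola1 at -172 to -165. In Gmnn, the other gene called lower at D7 than at D4, it lay past the start, at bases 39 to 46. Over the members with a window, the median log2 fold change at D4 was 2.20 for the 15 with an E2F word and 1.94 for the 17 without, and 13 and 17 of them were called. The 5 members without a window, Rrm2 among them, had a median of 2.96 and are in neither set. This is a description and was not tested.

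In the lncRNA table, 61 transcripts lay inside, across or within 10 kb of 25 of the members on Rnor_6.0, and 37 of them passed the filter on low counts. At D4, 3 were called, all of them higher, beside 5.19% called higher and 4.87% called lower among the 14077 lncRNAs tested, and at D7 1 was called higher and 1 lower, against 3% and 2.79%. These shares are near the background. With 1 library left out, the calls at D4 were 0 (without control b or D4 b), 1 or 2, and those at D7 were 1 in each case. In the fit of all libraries 12 of the 37 had an unadjusted p under 0.05 at each day. Among all 14077 lncRNAs tested, 4005 had one at D4 and 3595 at D7. Of the transcripts that overlap a member, 9 inside it and 2 partly overlapping it were tested. None was called by edgeR at either day, and 5 had an unadjusted p under 0.05 at each. DESeq2 called 0 of them at D4 and 1 at D7. The called transcripts were NONRATT014793.2 and NONRATT014794.2 near Cdt1 and NONRATT007825.2 near Mcm7 at D4, and NONRATT019794.2 near Gins1 at D7. NONRATT014793.2 (chr19:55389681-55390521), which starts 3170 bases past Cdt1, had 99 and 83 fragments in control and 292 and 289 on D4, with a log2 fold change of 1.52 ± 0.19 (adjusted p = 0.0107). On D7 it had 2 and 2 fragments, and it was called lower than control (adjusted p = 0.00197). Its neighbour NONRATT014794.2 (chr19:55391342-55393794) had 119 and 57, then 282 and 319, then 203 and 210 fragments, and Cdt1 itself 61 and 75, then 867 and 1111, then 577 and 460. Neither neighbour had such low counts on D7.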

How the data were processed

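Sequencing was of whole sciatic nerve RNA depleted of ribosomal RNA. Per the submitters' processing notes the authors used HISAT2 2.0.4 for mapping and StringTie 1.3.0 for assembly, and they deposited fragment counts per gene and per lncRNA transcript, not normalized, with FPKM beside them. The deposited gene FPKM values equal the count divided by length and by the library's gene total. They were used to compare levels between genes and in 1 alternative test. The counts were on Rnor_6.0, and whether they used the strand was not given in the sources used here.

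Counts were tested with edgeR 4.0.16 (R 4.3.3): filterByExpr, TMM factors, 1 quasi-likelihood fit of the 6 libraries for each table, Benjamini-Hochberg adjustment over all 15195 genes or 14077 lncRNAs tested, and a call at adjusted p under 0.05 with at least 2-fold change, following the thresholds of the study. CPM values use the TMM-scaled library totals. Standard errors are the absolute log2 fold change over the square root of F. The procedure was tested on simulated counts. Promoter windows came from RefSeq tables of GRCr8 and were searched with Python 3.11.15; proteins were not analysed here.

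The members and lists were chosen with earlier results of these data known. All members are named. Of each other list, the genes named are the 2 largest rises and 2 largest falls called at D4 and any called between D7 and D4. Relatives of members, E2f1, Tfdp1, Topbp1, Cldn5 and other uncalled genes were named after their values were seen. Alternatives were 2-group fits, a block for the library letter, DESeq2 1.42.0, RLE or no scaling factors, other low-count filters, other fold thresholds, limma 3.58.1 on log2(FPKM + 1), and leaving out each library. Rats with the same letter are different animals, and deviations of same-lettered libraries from their group means correlated over genes at 0.02 (control and D4), 0.22 (control and D7) and -0.17 (D4 and D7), so the letters were not taken as pairs. Leaving out a library leaves 1 in its group, which is then assumed to vary like the other groups. Some Schwann cell markers are not reported here.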

Additional observations from a re-analysis of the deposited data

Results flagged for a closer look

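By the direct test between D4 and D7, 2 of the 37 genes passed both the adjusted p and the fold threshold. Gmnn was at 17.4 and 20.8 CPM on D4 and 8.87 and 9.35 on D7, a log2 difference of -1.07. Tk1 was at 74.6 and 82.2 CPM on D4 and 35.2 and 38.4 on D7, a log2 difference of -1.09. Both stayed above control at D7, by log2 fold changes of 2.24 and 2.67. With 2 libraries per group no group could be examined for outlying samples.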

How the results depend on the processing

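Between 33 and 37 members were called at D4 in every alternative run other than testing the 2-fold change itself, which called 26 of 37. At D7 it was 28 to 37, and 18 with the 2-fold change tested. For D7 against D4 the count of 2 became 7 with no fold threshold, 0 with the 2-fold change tested (0 members then had an unadjusted p under 0.05), and 0 to 3 when 1 library was left out. The median log2 fold change at D4 was 2.38 without TMM factors, where the median of all genes moved to 0.25, and 1.85 with limma on FPKM. Leaving out 1 library gave 1.97 to 2.22 at D4 and 1.47 to 1.79 at D7. At D7 it was 1.79 without TMM factors, beside 0.31 for all genes. With the replicate block 35, 30 and 2 members were called in the 3 comparisons; it changed no count of members. The lncRNAs called at member loci at D4, 3 in all, became 1 with 2 groups fitted, with the replicate block and with no filter, 0 with the 2-fold change tested and 0 with only overlapping transcripts, and 0 to 2 with a library left out. At D7 the 2 became 1 with the replicate block, no filter, at least 10 counts or the 2-fold change tested, 4 with DESeq2, 5 without TMM factors, 0 with only overlapping transcripts, and 1 with any library left out. The cause of these changes was not tested. Between D7 and D4, uncalled differences near 0 changed sign: Mcm7 to -0.001 with DESeq2 or RLE factors and over the range -0.083 to 0.134 with a library left out, Prim1 to -0.001 with 2 groups fitted, to -0.025 with DESeq2 or RLE factors and -0.181 to 0.217 with a library left out, Prim2 -0.258 to 0.012 and Rfc3 -0.119 to 0.369 with a library left out. With 2 rats per group, the fold changes of Orc1, Cdc6, Mcm5 and Rrm2 moved by over 1.5 times when 1 control library was left out.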
